A study of Mus musculus with 59 samples.

Results

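Major genome activation in cloned mouse embryos was described as the difference between the late and the early 2-cell stage in untreated embryos, gene by gene. A gene was included when it was listed at 1 FPKM or more (fragments per kilobase of transcript, scaled to the mapped fragments) in either stage, which kept 12794 of the 24421 genes of the table. The embryos were clones from somatic cell nuclear transfer (SCNT): an enucleated oocyte receives the nucleus of a differentiated cell and is then activated. Per the labels, cumulus cells, the granulosa-derived cells around the oocyte, were the donor cells, the strain was BDF1 and RNA was polyadenylated. The untreated groups, labelled WT for treatment, were collected as 1-cell embryos (13 to 14 h after activation), at the early 2-cell stage (20 to 21 h) and at the late 2-cell stage (33 to 34 h). A further late 2-cell group of the same age received trichostatin A (TSA), which blocks histone deacetylases. The labels list 5 RNA libraries in each of these groups and do not say whether they came from separate embryo collections. Each gene has a single value per group in the table, and no error, replicate check or p-value can be given.

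In the mouse, the genome is largely silent after the oocyte matures, and the first divisions run on RNA stored by the oocyte. A minor wave of transcription occurs in the zygote and the major wave during the 2-cell stage, while stored maternal RNA is degraded and a set of genes and retrotransposons specific to this stage is transcribed for a short time. In SCNT embryos the transferred nucleus has to take up this programme. In bulk samples such as these, a smaller number of cells of a type and less RNA per cell cannot be told apart.

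The 150 bases before the annotated starts of 6 genes are shown because they carry the motif matches described further on: 4 genes higher at the late 2-cell stage (Usp17lb, Zscan4c, Zscan4d and Obox3), a ribosomal protein gene (Rpl41) and a maternal ring finger gene (Rfpl4). They come from RefSeq (GRCm38.p6), were chosen after the matches had been seen, and read 5′ to 3′ towards the start. Capitals mark TATAAA (the TATA box), CCAAT (bound by NF-Y), GGGCGG (the GC box) and CCGGAAG (an ETS factor site), on either strand, so that ATTGG and CCGCCC are the same motifs read from the other strand. The windows lie at chr7:104842584-104842733 (minus strand) for Usp17lb, chr7:11005595-11005744 (plus strand) for Zscan4c, chr7:11166149-11166298 (minus strand) for Zscan4d, chr7:15639778-15639927 (minus strand) for Obox3, chr10:128549169-128549318 (minus strand) for Rpl41 and chr7:5116912-5117061 (minus strand) for Rfpl4.

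Usp17lb: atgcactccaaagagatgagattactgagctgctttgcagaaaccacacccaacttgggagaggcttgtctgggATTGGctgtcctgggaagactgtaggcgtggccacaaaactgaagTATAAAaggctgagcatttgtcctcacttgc
Zscan4c: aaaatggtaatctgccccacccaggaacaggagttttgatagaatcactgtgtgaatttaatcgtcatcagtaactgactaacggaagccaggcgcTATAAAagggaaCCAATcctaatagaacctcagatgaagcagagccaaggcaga
Zscan4d: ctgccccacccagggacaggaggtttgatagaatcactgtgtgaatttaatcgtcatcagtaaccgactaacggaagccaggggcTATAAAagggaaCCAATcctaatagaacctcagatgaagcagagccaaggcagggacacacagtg
Obox3: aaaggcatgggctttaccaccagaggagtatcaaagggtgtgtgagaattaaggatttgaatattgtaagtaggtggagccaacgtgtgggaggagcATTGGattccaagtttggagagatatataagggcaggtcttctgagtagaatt
Rpl41: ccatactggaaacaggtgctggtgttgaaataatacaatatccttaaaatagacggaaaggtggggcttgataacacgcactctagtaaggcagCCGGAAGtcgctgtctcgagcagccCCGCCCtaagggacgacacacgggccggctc
Rfpl4: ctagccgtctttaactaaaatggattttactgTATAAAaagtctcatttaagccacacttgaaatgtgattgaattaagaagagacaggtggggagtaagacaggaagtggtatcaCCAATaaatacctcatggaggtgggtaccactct

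Zscan4c and Zscan4d, copies of 1 gene family, carry the same TATAAA and CCAAT matches, 54 and 42 bases before the start of Zscan4c and 65 and 53 bases before that of Zscan4d. In Usp17lb, TATAAA lies 31 bases before the start. Rpl41 carries a GC box and an ETS match and no TATAAA. Rfpl4, whose value was lower at the late stage, also has a TATAAA and a CCAAT match.

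Over the 12794 genes, 6128 (47.9%) were at least 2-fold higher at the late 2-cell stage and 1399 (10.9%) at least 2-fold lower, where 2-fold means a difference of 1 in log2(FPKM + 1), the scale of all differences below. The median difference was 0.92, with quartiles at -0.16 and 1.89, and 9170 genes (71.7%) lay above 0. At 4-fold the counts were 2940 higher and 419 lower, and at 16-fold 355 and 17. Of the genes kept, 3317 reached 1 FPKM only at the late stage and had to be higher there, and 579 only at the early stage. Among the 8898 genes with at least 1 FPKM in both stages, 3436 (38.6%) were 2-fold higher and 1123 (12.6%) lower. By contrast, between the 1-cell and the early 2-cell stage 376 of 10117 genes (3.72%) were at least 2-fold higher and 720 (7.12%) lower. The comparisons share the early 2-cell column, so their gene sets are not compared.

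FPKM values are shares of a column, and the most abundant transcripts took a smaller share at the late stage. The 100 most abundant genes held 44.2% of the summed FPKM at the early and 25.03% at the late stage, while the number of genes at 1 FPKM or more was 9477 and 12215. When the columns were scaled to the median ratio of the 8898 genes, which lowers the late column by 0.65 on the log2 scale, the median of all genes was 0.44, with 4523 genes (35.4%) 2-fold higher and 2420 (18.9%) lower. Higher genes then made up 65.1% of the genes 2-fold apart, against 81.4% as deposited, 71.5% without the 100 most abundant genes and 51.0% after quantile normalization. List medians below are followed in brackets by the median after median-ratio scaling, and are to be read beside 0.92 (0.44) for all genes. Counts of higher and lower members are likewise to be read beside 47.9% and 10.9% of all genes. At the edge of the 1 FPKM rule, Mturn was kept at 0.090 and 1.00 FPKM in the early and late columns and Nkain1 at 1.00 and 0.76. Chst11, at 0.9993 and 0.58 FPKM, was not kept.

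**Figure D1:**
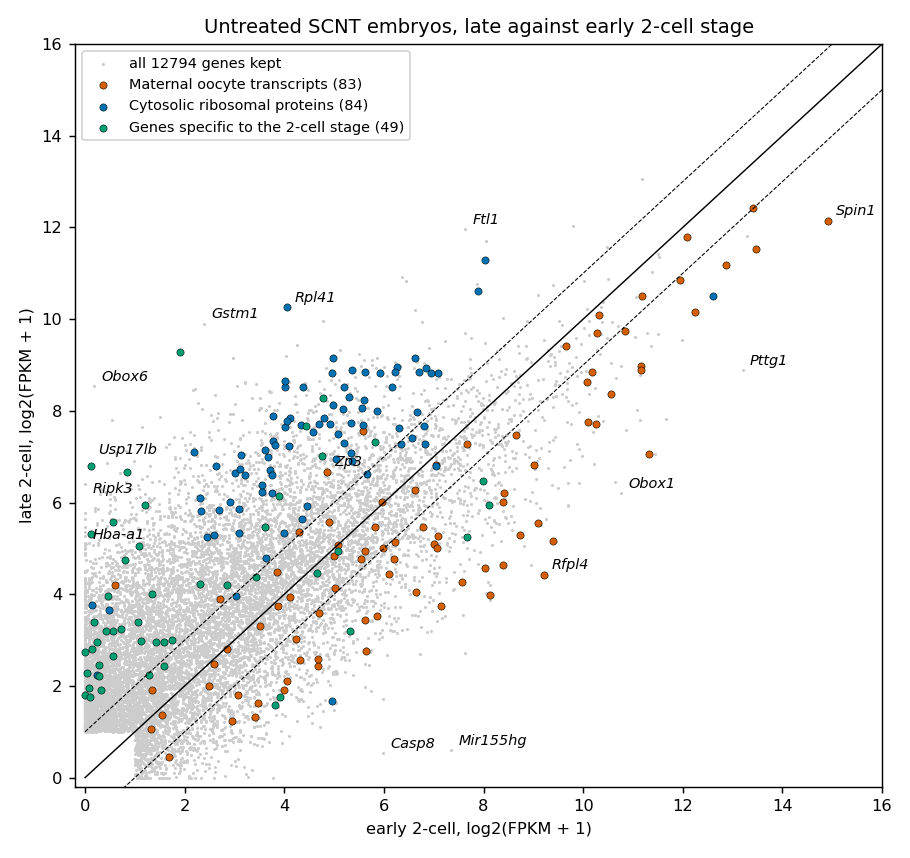
Each point is 1 of 12794 genes, with log2(FPKM + 1) at the early 2-cell stage on the x axis and at the late 2-cell stage on the y axis. Equal values fall on the solid line and differences of 1 on the dashed lines, colours mark 3 gene lists, and most ribosomal protein genes (75 of 84) lie above the upper dashed line while most maternal transcripts (50 of 83) lie below the lower one.

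The label of the samples was checked against markers. All 6 oocyte and early embryo markers were at 1 FPKM or more at both stages, with a summed level of 6207 FPKM at the early and 1738 at the late stage. Of 6 markers of the 2-cell stage, 4 reached 1 FPKM at the early stage and 6 at the late stage, with sums of 265 and 317 FPKM. These sums join opposite directions, since 4 of the 6 were 2-fold higher late and 1 lower. Tcstv1, the lower one, was at 203 FPKM early and 36.8 late, Usp17lb at 0.090 and 110, and Zfp352 at 26.0 and 129. Markers of cumulus and granulosa cells, the donor cell type, reached 1 FPKM in 9 of 23 cases at each stage, and their sum was 105 FPKM early and 199 FPKM late. Of the 23, 6 were 2-fold higher late and 1 lower, with Anxa2 at 8.28 FPKM early and 67.0 late. Pgr and Inha were listed at 0 at both stages. The 9 blood markers summed to 0.55 FPKM early and 52.6 FPKM late. Most of this late sum was Hba-a1, an alpha-globin, at 0.0071 and 32.9 FPKM. Cd52, Cd74 and Lyz2 also reached 1 FPKM at the late stage, while the beta-globins Hbb-bs and Hbb-bt and the leukocyte marker Ptprc were listed at 0 in both stages. The early sum depends on the markers chosen. A longer list of 23 blood and immune genes, with Hba-a2 and H2-Aa, summed to 14.3 FPKM early and 113 FPKM late. The part of the cumulus and blood markers in the results below was not tested. Zero and near-zero values need care in this table, because Gapdh, a glycolytic gene in general use, was listed at 0.17 FPKM early and 0.91 FPKM late.

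Genes specific to the 2-cell stage were mostly higher at the late 2-cell stage. Of 68 genes listed, 49 were kept and 8 were below the filter. Of the 49, 38 were at least 2-fold higher and 6 lower, with a median of 2.08 against 0.92 for all genes, and of 1.63 against 0.44 after median-ratio scaling. Of the 28 members with at least 1 FPKM at both stages, 17 were 2-fold higher and 6 lower. B020004C17Rik, a gene known by its clone name, was at 0.20 FPKM in 1-cell, 2.76 in early and 623 in late 2-cell embryos. Usp17lb, a deubiquitinase gene with near-identical copies, was at 0.15, 0.090 and 110 FPKM in the same order. Pramel6, of the PRAME-like family linked to pluripotency, was at 0.85, 0.80 and 101 FPKM. These 3 genes were under 3 FPKM until the late stage.

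Within this list the Zscan4 genes, which encode factors known for telomere maintenance in embryonic stem cells, were at low levels. Zscan4c was at 1.23, 0.48 and 5.29 FPKM over the 3 untreated stages, a late minus early difference of 2.08. Zscan4d was at 4.06, 2.34 and 7.02 FPKM, a difference of 1.26, which was 0.75 after median-ratio scaling. The members with lower late values were already high in 1-cell embryos. Tcstv1, another 2-cell gene, was at 139 FPKM in 1-cell, 203 in early and 36.8 in late 2-cell embryos. C87499 was at 394, 275 and 60.8 FPKM, and Zfp750 at 26.9, 13.1 and 1.99. Reads of copies in these families may not be assigned to 1 member with certainty. Dux, the transcription factor in the title of the series, was listed at 0 early and 0.020 FPKM late and was not kept.

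The Obox genes, which encode homeobox proteins of the oocyte and early embryo, differed in opposite directions. Of 6 members kept, 2 were at least 2-fold higher and 4 lower, as deposited and after median-ratio scaling, with a median of -3.47 (-4.11). Obox6, on chromosome 7 from 15833250 to 15839679, was at 0.17 FPKM in 1-cell, 0.13 in early and 371 in late 2-cell embryos, the highest difference of the named genes (8.36, and 8.0004 after median-ratio scaling). Obox3 was listed at 0 early and at 28.3 FPKM late. The other members were high at the earlier stages. Obox5 was at 2100 FPKM in 1-cell, 3253 in early and 225 in late 2-cell embryos, Obox1 at 1357, 1742 and 72.3, Obox7 at 676, 832 and 60.1, and Obox2 at 703, 379 and 41.1. Summed over the family, the level was 6206 FPKM early and 798 FPKM late, since the members with lower late values were the abundant ones.

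Transcription factors linked to genome activation had shares near those of all genes. Of 30 kept, 16 (53.3%) were at least 2-fold higher and 3 (10.0%) lower, against 47.9% and 10.9% of all genes, with a median of 1.24 (0.71 after median-ratio scaling). Dppa4 and Dppa2, partner proteins that act upstream of 2-cell genes, were higher at the late stage. Dppa4 was at 4.93 FPKM early and 217 FPKM late (5.20), and Dppa2 at 19.3 and 88.8 (2.15). Gabpa, an ETS-family factor, was at 1.83 and 48.8 FPKM, and Nr5a2, an orphan nuclear receptor, at 13.8 and 52.7. Nfya, the DNA-binding subunit of NF-Y, was at 15.05 and 29.98 FPKM, a difference of 0.95 that lies near the median of all genes. Klf17, a Krüppel-like factor of the oocyte and early embryo, was at 386 FPKM early and 125 late (-1.62). Zfp57, which protects imprints, was at 121 and 23.9 FPKM, and Tfap2c, a factor of the trophectoderm, at 11.1 and 1.23.

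Genes of the transcription and splicing machinery had shares of higher members from 38.7% to 54.1%, against 47.9% of all genes. RNA polymerase II and its general factors had 33 of 61 members (54.1%) 2-fold higher and 4 lower, with a median of 1.21 (0.56 after median-ratio scaling). Polr2a, the largest subunit of RNA polymerase II, was at 2.41 FPKM early and 29.1 late. Nelfe, a subunit of the pausing factor NELF, was at 10.6 and 265 FPKM. Tbpl2, the oocyte form of the TATA-binding protein, was at 21.3 FPKM early and 1.53 late, and Taf5, a TFIID subunit, at 107 and 8.80. Mediator subunits had 12 of 31 members (38.7%) higher and 3 lower, and their median of 0.57, under that of all genes, was -0.05 after median-ratio scaling and -0.15 after quantile normalization. Med29 was at 12.1 FPKM early and 341 late, whereas Med30 was at 565 and 44.8. Among splicing factors, 30 of 58 (51.7%) were higher and 7 lower, with a median of 1.17 (0.55). Snrpc, of the U1 particle, was at 18.1 and 695 FPKM, while Snrpb2, of the U2 particle, was at 526 and 62.1. Members thus lay on both sides of 0 in each of these lists, and in Mediator these were subunits of 1 complex.

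The genes that make ribosomes were among the most uniformly higher. Cytosolic ribosomal protein genes had 75 of 84 members at least 2-fold higher and 2 lower, with the highest list median, 2.82 (2.22 after median-ratio scaling). Of these, 72 of the higher members were at 1 FPKM or more at both stages. Together they held 1.85% of the summed FPKM at the early and 4.38% at the late stage. Rpl41 was at 15.7 FPKM early and 1229 late, Rps19 at 15.2 and 399, and Rps15 at 15.2 and 365. Rpl11 was at 113 and 153 FPKM, a difference of 0.44 that was -0.20 after median-ratio scaling. The members that were 2-fold lower were Rps27l and Rpl39l, both -like copies. Many ribosomal protein genes have processed pseudogenes with near-identical sequence, and how the authors' counting treated reads shared with them is not given in the sources used here.

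Factors of ribosome biogenesis and RNA polymerase I had 63 of 73 members 2-fold higher and 1 lower, with a median of 2.19 (1.61). Ubtf, the factor that binds ribosomal DNA repeats for RNA polymerase I, was at 2.16 FPKM early and 43.6 late. Polr1a, the largest subunit of that polymerase, was at 3.13 and 24.5 FPKM, and Nop16, a nucleolar protein, at 10.8 and 187. Their list was slightly lower at early 2-cell than at 1-cell, with a median of -0.43 over the members measured there. This was not particular to it: the same median was -0.56 for proteasome genes, -0.44 for aminoacyl-tRNA synthetases and -0.42 for maternal oocyte transcripts. For cytosolic ribosomal protein genes it was 0.48. Npm1, the abundant nucleolar chaperone, was at 1318 FPKM early and 1221 late. The exception was Utp18, of the small-subunit processome, at 93.3 and 38.6 FPKM. The precursor of ribosomal RNA, Rn45s, which carries no regular poly(A) tail, was at 2331 FPKM early and 8474 FPKM late, the highest value of the late column.

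Lists of protein synthesis, folding and turnover had shares of higher members from 50% to 87.5%, against 47.9% of all genes. Translation factors had 36 of 54 members 2-fold higher and 2 lower (median 1.60, and 0.98 after median-ratio scaling). Eif4ebp1, a repressor of cap-dependent translation, was at 9.81 FPKM early and 381 late, and Eif1b at 294 and 67.9. Of 8 subunits of the CCT chaperonin, which folds actin and tubulin, 7 (87.5%) were higher and 0 lower (median 1.89, and 1.25), and Cct6a was at 1.56 and 85.6 FPKM. Heat shock and unfolded protein response genes had 20 of 35 higher and 0 lower (median 1.35, and 0.81). Hspa5, the chaperone of the endoplasmic reticulum, was at 41.9 and 425 FPKM, while Hsp90aa1 was at 468 and 380. Proteasome subunits and regulators had 29 of 45 higher and 2 lower (median 1.65, and 1.02). Psmb5, a catalytic subunit, was at 1.80 and 87.4 FPKM. Psmg1, an assembly chaperone, was lower at the late stage, at 266 and 64.9 FPKM. Aminoacyl-tRNA synthetases had 10 of 20 (50%) higher and 0 lower, and their share of higher members and their median of 0.99 (0.39) lay near those of all genes. Their highest difference was that of Mars, at 0.20 and 56.7 FPKM.

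**Figure D2:**
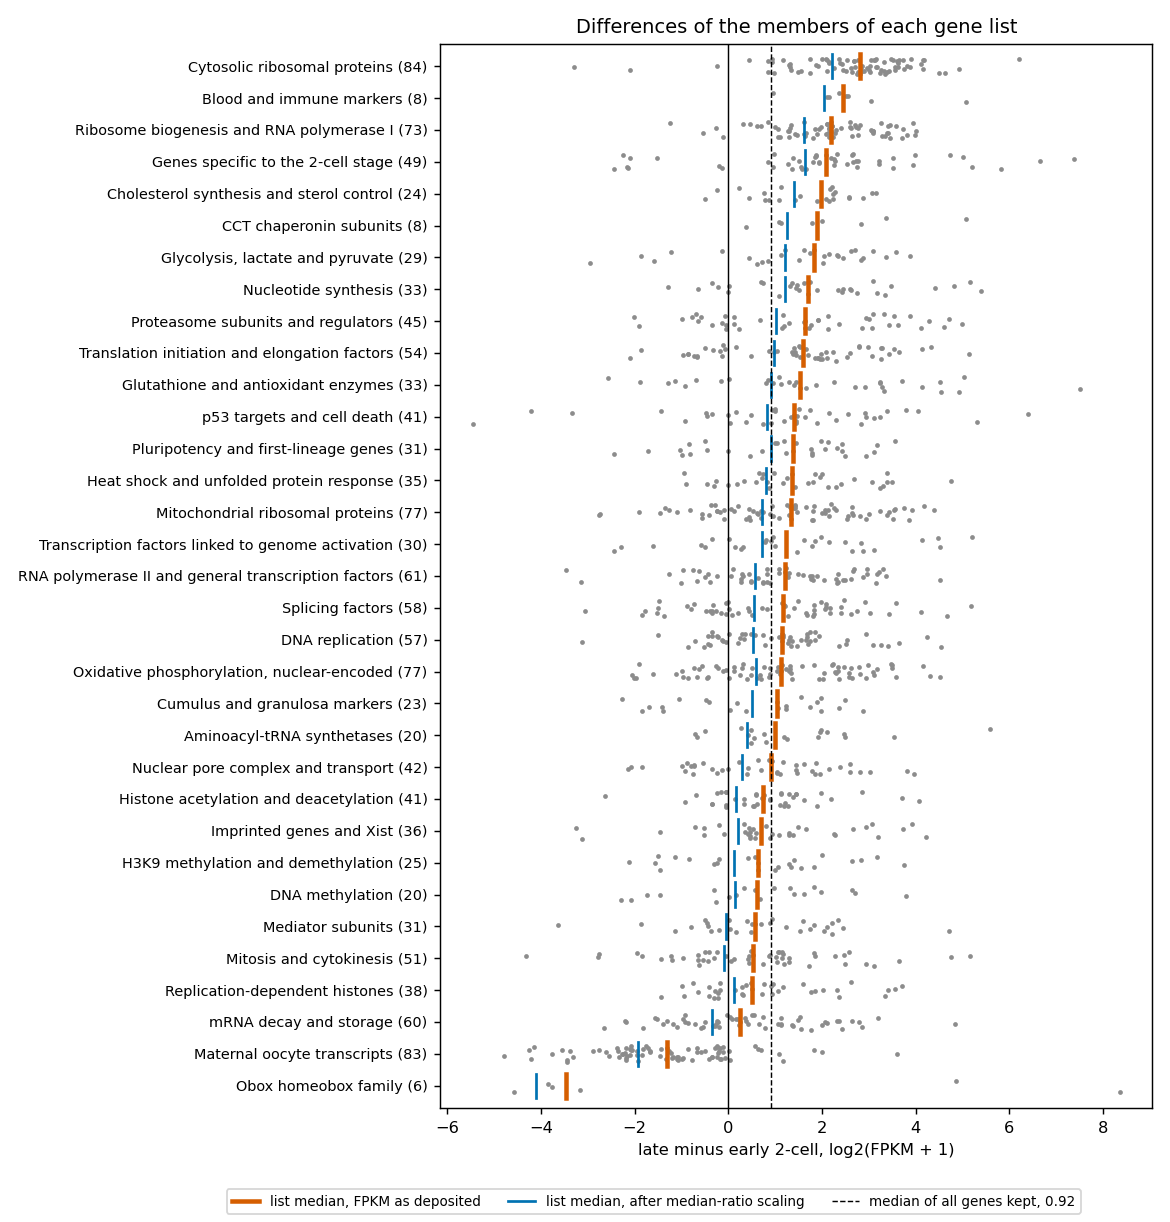
Each grey point is a member of 1 of 33 gene lists, with its late minus early 2-cell difference in log2(FPKM + 1) on the x axis and the number of members kept in brackets. Orange bars are list medians as deposited, of which 31 lie above 0, and blue bars the medians after median-ratio scaling, of which 28 do, with Mediator, mitosis and mRNA decay changing sign.

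Metabolic lists had larger medians for nucleotide and glycolytic genes than for respiration. The sterol median was also larger over all members kept, but not clearly so among members at 1 FPKM or more at both stages. Nucleotide synthesis had 25 of 33 members 2-fold higher and 1 lower, with a median of 1.7003 (1.21 after median-ratio scaling). Impdh2, the rate-limiting enzyme of guanine nucleotide synthesis, was at 1.43 FPKM early and 67.0 late, and Prps1, which makes the ribose precursor, at 15.3 and 583. Cholesterol synthesis had 17 of 24 members higher and 0 lower, with a median of 1.99 (1.39), but 9 of these were at 1 FPKM or more at both stages. Over the 16 sterol members at that level at both stages the median was 1.10. Under the same filter it was 1.07 for oxidative phosphorylation, 1.72 for nucleotide synthesis and 1.74 for glycolysis. Glycolysis, lactate and pyruvate genes had 20 of 29 higher and 4 lower, with a median of 1.82 (1.21). Pgam1, phosphoglycerate mutase, was at 1.2004 and 31.3 FPKM. Nuclear-encoded genes of oxidative phosphorylation had 42 of 77 (54.5%) higher and 6 (7.79%) lower, near the 47.9% and 10.9% of all genes. Their median was 1.12 (0.59). Uqcrc1, of complex III, was at 2.94 and 89.3 FPKM, and Cox6c, of complex IV, at 691 and 170. Mitochondrial ribosomal proteins had 43 of 77 (55.8%) higher and 7 (9.09%) lower, also near those shares, with a median of 1.33 (0.72).

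Glutathione and antioxidant genes had 22 of 33 members 2-fold higher and 4 lower, with a median of 1.52 (0.90). Gstm1, a glutathione S-transferase on chromosome 3 from 108012250 to 108017973, was at 0.48 FPKM in 1-cell, 4.21 in early and 953 in late 2-cell embryos, the second of the named differences (7.51). Gpx4, which reduces lipid peroxides, was at 4.64 FPKM early and 172 late. Sod1, the cytosolic superoxide dismutase, was at 696 and 317 FPKM. The iron storage genes Ftl1 and Fth1 were among the 10 most abundant genes of the late column. Ftl1 was at 102 FPKM in 1-cell, 198 in early and 4000 in late 2-cell embryos, and Fth1 at 166, 262 and 3323.

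Maternal oocyte transcripts were the main group with lower late values. Of 83 kept, 50 were at least 2-fold lower and 5 higher, with a median of -1.3013 (-1.94 after median-ratio scaling). Together they held 19.6% of the summed FPKM at the early and 6.02% at the late stage. Spin1, a spindle-associated chromatin reader, was at 22919 FPKM in 1-cell, 30986 in early and 4540 in late 2-cell embryos. Rfpl4, an oocyte ring finger protein gene, was at 1182, 594 and 20.5 FPKM, and Bcl2l10, an oocyte member of the Bcl-2 family, at 444, 668 and 35.0. Dppa3, which protects maternal DNA methylation, was at 3321, 4830 and 1142 FPKM, so that it was lower late but still among abundant transcripts. Zar1, an oocyte RNA-binding protein, was at 22.8, 15.7 and 3.31 FPKM.

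Some maternal transcripts did not have lower late values as deposited. Gdf9, an oocyte growth factor, was at 61.3 FPKM early and 63.1 late, a difference of 0.04 that was -0.59 after median-ratio scaling. Zp3, of the egg coat, was at 53.05 FPKM in 1-cell, 27.9 in early and 101 in late 2-cell embryos. Cd9, the egg membrane tetraspanin, was at 75.6, 46.5 and 188 FPKM. Omt2a, one of the most abundant transcripts at both stages, was lower late as deposited, at 10862 FPKM early and 5470 late. Its difference of -0.99 was -1.64 after median-ratio scaling and 0.13 after quantile normalization. At the other end, Pttg1, securin, was at 9416 FPKM early and 473 late, and Crabp2, a retinoic acid carrier, at 497 and 24.1.

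mRNA decay and storage genes had 21 of 60 members 2-fold higher and 10 lower, with a median of 0.24 that was -0.35 after median-ratio scaling and -0.54 after quantile normalization. Btg4, the adaptor of the CCR4-NOT deadenylase in the maturing oocyte, was at 1514 FPKM early and 330 late, and Cnot6l, a catalytic subunit, at 230 and 78.9. Cnot7, another catalytic subunit, was at 799 and 423 FPKM, a difference of -0.92. Exosc5 and Dis3, of the RNA exosome, were higher late, at 0.88 and 52.8 FPKM and at 3.14 and 29.0 FPKM.

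Cell cycle genes split between members. DNA replication had 31 of 57 (54.4%) 2-fold higher and 2 (3.51%) lower, against 47.9% and 10.9% of all genes. Its median was 1.15 (0.53 after median-ratio scaling). Rpa2 and Rpa3, subunits of the same single-strand binding complex, lay on opposite sides, at 10.5 FPKM early and 268 late for Rpa2 and at 113 and 12.1 for Rpa3. Mitosis and cytokinesis had 22 of 51 higher and 8 lower, with a median of 0.53 that was -0.09 after median-ratio scaling and -0.06 after quantile normalization. Cdk1, the mitotic kinase, was at 12.9 and 174 FPKM, and Cdc25c, its activating phosphatase, at 2.46 and 92.8. Ccnb2, a cyclin partner of Cdk1, was at 347 and 49.5 FPKM, and Mad2l1, of the spindle checkpoint, at 1623 and 420. Replication-dependent histones, most of whose mRNA has no poly(A) tail, had 13 of 38 higher and 2 lower, with a median of 0.50 (0.12) that was -0.41 after quantile normalization.

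Chromatin regulators lay under the median of all genes, with list medians of 0.75 (0.16), 0.63 (0.11) and 0.62 (0.13) for acetylation, H3K9 methylation and DNA methylation, all of which were below 0 after quantile normalization. Histone acetylation and deacetylation genes had 17 of 41 members 2-fold higher and 1 lower. Hdac1, a deacetylase that TSA inhibits, was at 1.78 FPKM early and 35.6 late, while Hdac2 was at 28.1 and 23.5. H3K9 methylation genes had 12 of 25 higher and 5 lower. Kdm4c, an H3K9 demethylase, was at 1.10 and 27.1 FPKM, and Ehmt2, the methyltransferase G9a, at 0.24 and 10.2. Kdm4b was at 0.030 and 1.52 FPKM, and Kdm4d, at 0.080 and 0.25, was not kept. Suv39h2 was at 81.5 and 36.7 FPKM. DNA methylation genes had 8 of 20 higher and 4 lower, with Dnmt1 at 7.60 and 8.69 FPKM (0.17, and -0.40 after median-ratio scaling) and Tet3, the oocyte dioxygenase, at 366 and 108.

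Xist, the RNA that silences an X chromosome in cis, was at 0.27 FPKM in 1-cell, 0.29 in early and 10.8 in late 2-cell embryos. Its antisense partner Tsix was at 0.59 FPKM early and 23.1 late, and without stated strand information reads of this overlapping pair cannot be told apart. Imprinted genes and Xist together had 15 of 36 members 2-fold higher and 3 lower, with a median of 0.70 (0.21) that was -0.18 after quantile normalization, but 4 of the 15 were at 1 FPKM or more at both stages. Sfmbt2, a Polycomb gene imprinted in extraembryonic tissue, was at 0.062 and 18.8 FPKM. Snurf, at 8.59 and 0.0090 FPKM, shares its position with Snrpn, at 18.2 and 92.4, so the values of this pair are uncertain.

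Genes of the first lineages were mostly low. Of 31 pluripotency and first-lineage genes kept, 19 were 2-fold higher and 3 lower (median 1.38, and 0.91), with 9 of the higher ones at 1 FPKM or more at both stages. Lifr, the receptor of leukaemia inhibitory factor, was at 0.76 FPKM early and 19.7 late, and Zfp42, a pluripotency marker, at 0.16 and 9.44. Pou5f1 was at 1.3011 and 2.18 FPKM, a difference of 0.47 that was -0.55 after quantile normalization. Nanog was at 0.024 and 1.10 FPKM, and Cdx2 was listed at 0 at both stages. Gata3, a trophectoderm factor, was lower, at 15.1 and 3.92 FPKM.

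Members of the cell death list were among the largest differences in both directions. Of 41 p53 targets and cell death genes, 24 were 2-fold higher and 4 lower, with a median of 1.40 (0.83). Ripk3, a kinase of necroptosis on chromosome 14 from 55784995 to 55788857, was listed at 0 in 1-cell and early 2-cell embryos and at 83.8 FPKM in late 2-cell embryos, where it overlaps a predicted gene. Bid, a pro-apoptotic Bcl-2 relative, was at 1.09 FPKM early and 82.2 late. Casp8, the caspase that cleaves Bid and restrains Ripk3, was at 69.2 FPKM in 1-cell, 62.6 in early and 0.44 in late 2-cell embryos. Birc3, an inhibitor of apoptosis, was at 124 FPKM early and 11.4 late.

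Longer lists of genes of other cells were counted in the same way. Of 23 cumulus and granulosa genes kept, 12 (52.2%) were 2-fold higher and 6 (26.1%) lower, against 47.9% and 10.9% of all genes. Their median was 1.03 (0.50), and -0.030 after quantile normalization. Anxa2, an annexin, was at 8.28 and 67.0 FPKM, and Cyp19a1, aromatase, at 6.26 and 0.50. Of 23 blood and immune genes, 15 were not kept. Of the 8 kept, 7 were 2-fold higher and 0 lower, with a median of 2.44 (2.04). Only 2 of the 8 were at 1 FPKM or more at both stages, and 1 of these was 2-fold higher. The others reached 1 FPKM only at the late stage and had to be higher there, so the median is largely set by the filter. Cd52, a leukocyte surface antigen, was at 0.45 FPKM early and 11.04 late, Cd74, the invariant chain, at 0.036 and 4.93, and the alpha-globin Hba-a2 at 4.77 and 33.0. Lyz2, a lysozyme, was listed at 0 early and at 3.46 FPKM late.

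The highest and lowest differences were taken among genes with 5 FPKM or more, leaving out microRNA and small nucleolar RNA genes and predicted genes, that is symbols of Gm and a number, clone names ending in Rik and the like. Differences within the range of the genes taken were thereby left out for B020004C17Rik (7.37), Gm11517 (7.25), Gm4850 (6.50) and 2610318N02Rik (6.42), and for 4933427D06Rik (-4.91), E330021D16Rik (-4.39) and E330034G19Rik (-4.27). Of the 12 highest, 11 are described here, and those not yet named were Mgll, Folr1, Trim43a, Pdxk, Cd63 and Epcam. Mgll, a monoglyceride lipase, was at 0.54 FPKM early and 134 late. Folr1, the folate receptor, was at 1.82 and 233 FPKM, and Epcam, an epithelial adhesion protein, at 1.19 and 155. Cd63, a tetraspanin of late endosomes, was at 3.63 and 354 FPKM. All 11 were under 10 FPKM in 1-cell embryos, and all 11 were above their early 2-cell value in TSA-treated late 2-cell embryos. The genes were picked partly for low early values, so the TSA count was close to fixed in advance and is no separate support. Of the 12 lowest, Pfdn4, a prefoldin subunit, was at 1595 and 86.0 FPKM, and Pls1, plastin 1, at 279 and 13.8. Mir155hg, the host transcript of microRNA 155, stood apart: it was listed at 0 in 1-cell, 162 in early and 0.52 in late 2-cell embryos, and at 169 FPKM in TSA-treated late 2-cell embryos. Of the 24 highest and lowest genes, 9 overlap another RefSeq gene.

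**Figure D3:**
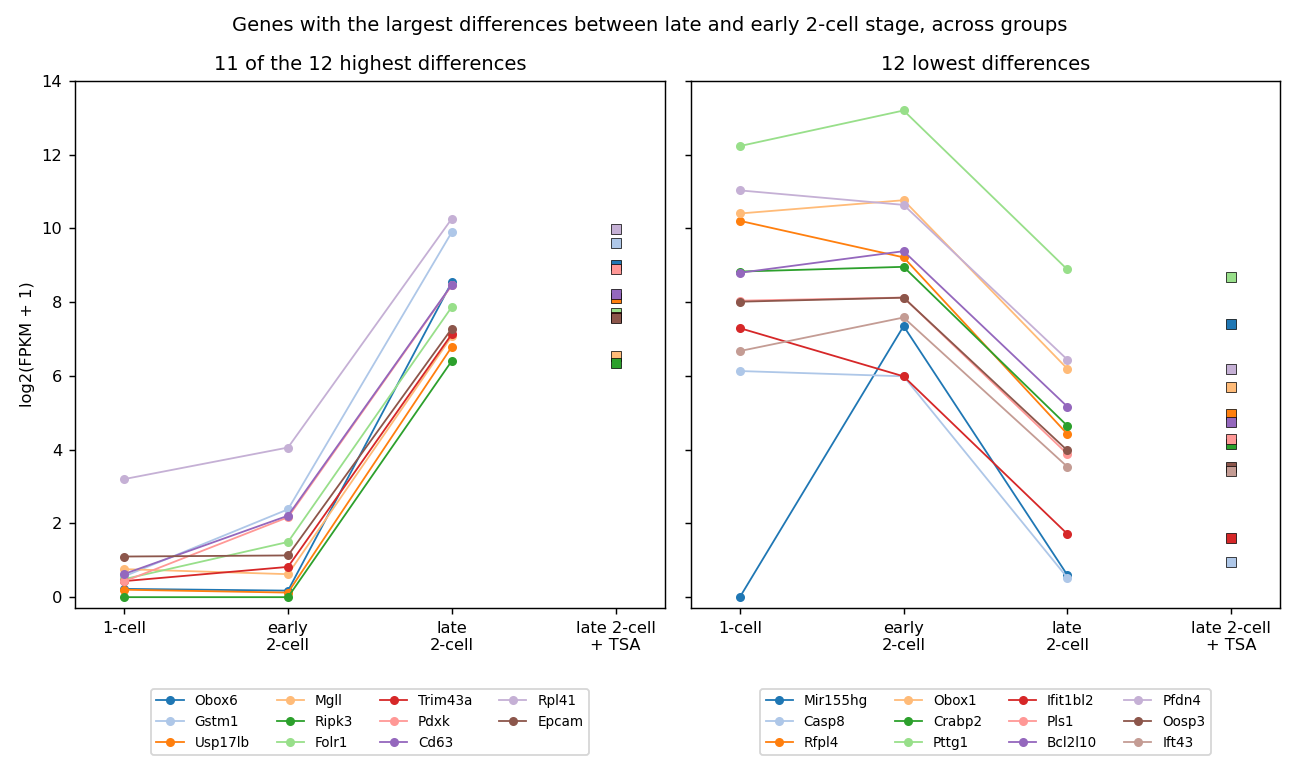
The y axis gives log2(FPKM + 1) for 11 of the 12 genes with the highest (left) and the 12 with the lowest (right) late minus early 2-cell differences among genes with 5 FPKM or more at either stage (predicted genes and clone names left out), and the x axis the 3 untreated stages joined by lines, with TSA-treated late 2-cell embryos as squares. The lines on the left are low until the early 2-cell stage, and on the right Mir155hg is at 0 in 1-cell embryos while the other 11 are already high there.

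A stricter view of new transcripts asked for genes under 0.5 FPKM at both earlier stages and at 5 FPKM or more at the late 2-cell stage. There were 520 such genes, and their median late level was 8.67 FPKM. Of the 487 that matched a RefSeq gene, 455 (93.4%) are protein coding, the same share as among all genes kept (93.4%). In TSA-treated late 2-cell embryos 426 of the 520 were at 5 FPKM or more. The matching share of all genes at 5 FPKM or more in untreated embryos was not counted, so 426 cannot be read as high or low for the 520. Beside Obox6, Usp17lb and Ripk3, the most abundant included Trim43b, of the TRIM ubiquitin ligase family, at 0.22 FPKM early and 80.8 late, and Fabp3, a fatty acid binding protein, at 0.32 and 74.4. Fabp3 was at 13.8 FPKM with TSA. Emc9, of the membrane protein insertion complex, was at 0.23 and 71.2 FPKM and overlaps Psme1. The reverse pattern, 5 FPKM or more at both earlier stages and under 0.5 at the late stage, was found for 12 genes. Among them were Casp8, Cyp19a1, Otx1, a homeobox gene at 8.18 and 0.17 FPKM, and Akr1c18, a progesterone-metabolizing enzyme at 9.19 and 0.12.

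In several gene families an abundant early member was lower at the late stage while a relative was higher. The 12 pairs described here were chosen for this contrast after their values had been seen, so they say nothing of how common it is. Aurkc, the germline Aurora kinase, was at 59.7 FPKM early and 7.90 late, and Aurkb, its somatic relative, at 2.48 and 123. Rps27l was at 6231 and 1446 FPKM, and Rps27 at 3.55 and 137. Rpl39l was at 30.3 and 2.17 FPKM, and Rpl39 at 5.03 and 38.2. In the glutathione S-transferase pair, Gstm5 was at 378 and 102 FPKM and Gstm1 had the values given above. Among importin alpha genes, which carry nuclear cargo, Kpna7 of the oocyte was at 24.5 and 5.05 FPKM and Kpna1 at 5.28 and 97.7. Of lactate dehydrogenase subunits, Ldhb was at 1004 and 128 FPKM and Ldha at 13.2 and 46.3.

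In the Rbbp, H3.3, Suv39h, Rps27 and lactate dehydrogenase pairs the early member remained the more abundant one on the FPKM scale. Rbbp7, a histone chaperone, was at 1341 FPKM early and 217 late, against 1.64 and 4.73 for Rbbp4, whose difference of 1.12 was -0.00098 after quantile normalization. H3f3b and H3f3a, which encode the same histone variant H3.3, were at 9955 and 3583 FPKM and at 91.4 and 239. Suv39h1 was at 4.68 and 7.74 FPKM, a difference of 0.62 that was 0.07 after median-ratio scaling and -0.49 after quantile normalization. Tbp itself was at 60.1 and 64.8 FPKM, above Tbpl2 at 21.3 and 1.53, and the Tbp difference of 0.11 was -0.53 after median-ratio scaling. Hdac2, paired with Hdac1, was lower by a difference of only -0.25. Other relatives did not show the contrast. Eif4e1b, the oocyte cap-binding protein, was at 62.0 and 31.1 FPKM and Eif4e at 389 and 373. Rpl10l was higher late, at 0.11 and 12.5 FPKM, as was Rpl10, at 32.7 and 180.

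**Figure D4:**
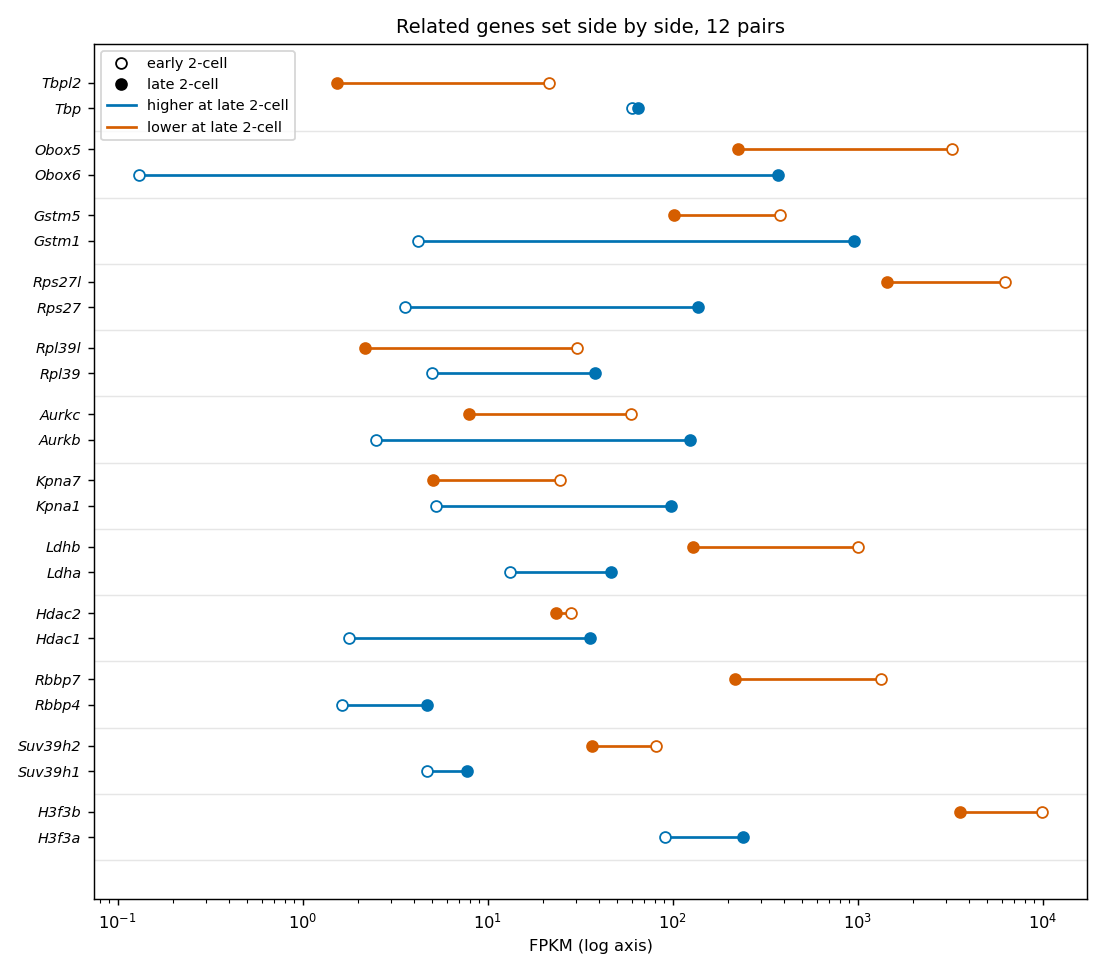
Each row is a gene of 1 of 12 pairs of relatives, with FPKM on a logarithmic x axis, open circles for the early and filled circles for the late 2-cell stage, orange where the late value is lower and blue where it is higher. The upper member of each pair is lower late and the other higher as deposited, while after median-ratio scaling Tbp lies below its early value (-0.53), and after quantile normalization Tbp, Suv39h1 and Rbbp4 lie below.

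The level at the early stage and the late minus early difference were related in part by construction, since the early value enters both and the filter fixes the lowest classes. Of genes at 1 to 10 FPKM early, 45.0% were 2-fold higher and 8.40% lower late, of those at 10 to 100 FPKM 28.9% and 18.1%, and of those at 100 to 1000 FPKM 8.07% and 42.4%. Of the 68 genes at 1000 FPKM or more, 63.2% were lower.

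Genes with a short genomic span were more often higher late, on the values as deposited. Of the 12794 genes, 12164 matched a RefSeq gene (GRCm38.p6) and had a span, introns included. The share at least 2-fold higher was 60.0% of 1652 genes under 5 kb, 54.4% from 5 to 20 kb, 48.9% from 20 to 50 kb, 40.4% from 50 to 100 kb and 25.2% of 1600 genes over 100 kb. The share 2-fold lower was 10.4% in the shortest and 13.9% in the longest class. The median span was 18173 bp for genes 2-fold higher, 25225 bp for genes 2-fold lower, 30657 bp for genes less than 2-fold apart and 12703 bp for the 520 newly listed genes. The median difference was 1.28 in the shortest class and 0.24 in the longest. The part of transcript length or of the RNA method in this was not tested. Over chromosomes, the share of genes 2-fold higher ran from 36.7% to 55.1%, with 55.1% on chromosome 11, 54.4% on chromosome 7 and 47.8% on the X chromosome.

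**Figure D5:**
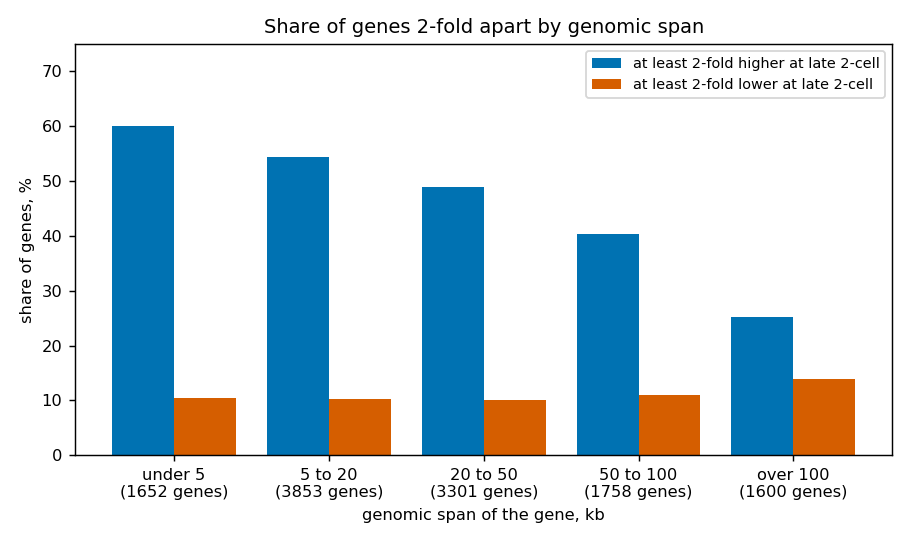
The y axis gives the share of genes in percent at least 2-fold higher (blue) or lower (orange) at the late than at the early 2-cell stage, and the x axis 5 classes of genomic span in kb with their numbers of genes. The blue bars go down from 60.0% to 25.2% and the orange bars lie between 10.1% and 13.9%, all as deposited and before scaling.

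Promoter windows of 250 bases before to 50 after the start were matched by symbol to 9638 of the 12794 genes. The median observed over expected CpG ratio was 0.75 for windows of genes 2-fold higher, 0.65 for genes 2-fold lower, 0.75 for genes less than 2-fold apart, 0.74 for all genes kept and 0.38 for all 32851 windows of the table. The GC box GGGCGG was found in 61.2% of windows of higher and 48.9% of lower genes, against 60.2% of genes less than 2-fold apart, 59.4% of genes kept and 35.7% of all windows. TATAAA was found in 7.42% and 10.1%, against 7.44% of genes less than 2-fold apart, 7.72% of genes kept and 13.6% of all. CCGGAAG, the ETS motif, was found in 18.2% of windows of higher and 13.1% of lower genes, against 15.9% of genes less than 2-fold apart, 16.7% of genes kept and 8.86% of all. The values of the higher genes thus lay near those of all genes kept. It was present in 27 of 74 windows (36.5%) of ribosomal protein genes, of which 63 of 84 had a window.

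The 2-cell-specific genes differed in composition from all windows, and shared a low CpG ratio with maternal oocyte transcripts. A window was found for 22 of the 49 genes, 23 windows in all. Their median CpG ratio was 0.18, against 0.38 for all windows and 0.24 for the 88 windows of maternal oocyte transcripts. TATAAA was present in 7 (30.4%) of the 23, CCAAT in 15 (65.2%) and GGATTA, the core of bicoid-like homeobox sites, in 9 (39.1%). The shares were 13.6%, 37.4% and 7.06% of all windows, and 13.6%, 45.5% and 5.68% of those of maternal oocyte transcripts. Of the 7 windows of 2-cell-specific genes with TATAAA, 6 belong to the Usp17l and Zscan4 families, whose copies share sequence and are not independent. The distance of TATAAA from the start ran from 110 bases in Usp17ld to 30 in B020004C17Rik. The same 6 copies are among the 14 genes with CCAAT, as are Tdpoz1 and Tdpoz5 of 1 family. Sp110 counts with 2 windows for CCAAT and for GGATTA, which was found in 8 genes. GATTNAATC, the core of a double homeobox site, was present in 2 of the 23 windows (8.70%), of AF067061 and Gm21312, against 0.27% of all. Zfp352, a zinc finger gene of the 2-cell stage, holds GGATTA 9 times between 227 and 61 bases before its start. AAGGTCA, a nuclear receptor site, was found in Zscan4c, Zscan4d and Zscan4f. A match describes letters in a window and is not evidence of binding.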

How the data were processed

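The authors deposited a table of log2(FPKM + 1) values per gene, per the file headers, with 6 columns of values, of which 4 were matched to groups of the labels and 2 were not used. The 1-cell column is named by 13 h, and its match rests on the collection time in the labels' protocols. HISAT2 2.1.0, StringTie 1.3.4, Bowtie2 2.3.4.3, SAMtools 1.7, deepTools 2.5.7, Cufflinks and mm10 are named per the submitters' processing notes, without roles. The annotation, the strand setting and how 5 libraries became 1 column are, in the sources used here, not given. Depth is unknown, so no interval or detection limit is given, and 0 is read as listed at 0.

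Differences were taken as deposited, with a pseudocount of 1, and FPKM was recovered by raising 2 to the value and subtracting 1. A test with limma was considered for values per library and could not be run on 1 value per group. Named genes were the 12 highest and 12 lowest differences at 5 FPKM or more, the 3 highest and 3 lowest of each list, the 10 most abundant genes of each column or new and lost pattern, and a short hand-picked set. Genes outside this rule (the gene pairs, Snrpn, Rpl11, the genes at the edge of the filter, and list members beyond the 3) were named after their values were seen. The members and all 33 lists were chosen with earlier results of these data known. Python 3.11.15, numpy 2.4.6, pandas 2.3.3 and matplotlib 3.10.9 were used, and the procedure was checked on simulated data. Alternatives were pseudocounts of 0.1 and 5, no filter, filters of 5 FPKM or of 1 FPKM in both columns, median-ratio and quantile scaling, and leaving out the 100 most abundant genes. Chromatin libraries and Dux-injected embryos were not analysed here, and some genes are not reported here.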

Additional observations from a re-analysis of the deposited data

How the results depend on the processing

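No paired analysis was possible because the table gives 1 value per group, so the replicate block on the numbers of the labels was not run, nor was leaving out a library. The count of genes at least 2-fold higher, 6128 as reported, was 3556 with a pseudocount of 5, 3403 after quantile normalization and 3436 with the filter of 1 FPKM in both columns, an alternative chosen after seeing the data. The count of genes 2-fold lower, 1399 as reported, was 847 with a pseudocount of 5, 2420 after median-ratio scaling, 3273 after quantile normalization and 2175 without the 100 most abundant genes. The median of all genes, 0.92 as reported, was 0.066 with no filter, 0.047 after quantile normalization, 0.43 with a pseudocount of 5, 0.44 after median-ratio scaling and 0.54 with the filter of 1 FPKM in both columns. Quantile normalization forces the columns to 1 distribution. Of 33 list medians, 3 changed sign with median-ratio scaling, 10 with quantile normalization, 1 without the 100 most abundant genes and 0 under the other alternatives. Among lists with a median of 1 or more, the median of the cumulus and granulosa markers reversed, to -0.030 after quantile normalization against 1.03 as reported. No difference has a replicate check, and depth is unknown, so differences of genes near 1 FPKM are the least certain.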
